A study of Mus musculus with 2 samples.

Results

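Chromatin contacts spanning 500 kb or more were examined in the hair matrix keratinocytes of mouse pups at day 4.5 after birth. Contacts were taken from the lists of enriched pixels that the authors deposited, where a pixel is 2 bins of 5 kb on the same chromosome that met more often than their surroundings. All pixels with starts at least 500 kb apart were kept, apart from 2 per list that join bins from 36230001 to bins from 39840001 on chromosome 17, a repeat related to ribosomal DNA. This gave 124 of 4872 pixels in the Tet2/Tet3 double-knockout list (2.55%) and 187 of 5811 pixels in the wild-type list (3.22%). Pixels with both anchors within 20 kb were joined into loops, which gave 86 long loops in the double knockout (DKO) and 117 in the wild type (WT).

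The DKO library came from mice with Tet2 and Tet3 deleted by a Cre recombinase under the Krt14 promoter, which is active in basal cells of stratified epithelia, and the WT library from mice labelled wild type. There was 1 library per genotype, each from 1.3 M sorted primary cells fixed in 2% formaldehyde for 10 minutes, ligated by Hi-C and sequenced with reads of 150 bp. How many animals were pooled, how the cells were sorted and how deeply each library was sequenced is not stated in the labels. Hi-C counts ligated DNA ends and measures no transcripts, so neither the cell type nor the deletion could be checked against marker genes. With no replicates there was no test and no p-value, all intervals are 95% intervals for counting error alone, and genotype cannot be told apart from any other way in which these 2 libraries differ.

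As background, cohesin extrudes chromatin loops that often stop at sites bound by CTCF, and such loops can bring a promoter near a distant enhancer. Genes that encode developmental regulators commonly lie in gene-poor neighbourhoods with enhancers spread over long distances. Binding of CTCF at some of its sites is blocked by CpG methylation, and TET2 and TET3 oxidise 5-methylcytosine, the first step of its removal. Hair matrix cells are the dividing epithelial cells of the hair bulb, which give rise to the shaft of the hair and to the sheath around it.

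Promoters of 7 genes at the long loops are shown first, because loops at these genes are named later and because CpG is the site on which TET enzymes act. The promoters of En1, Irx2, Mycn, Runx1, Bcl6 and Fgfr2 lay within 5 kb of an anchor bin in both lists. En1 (chr1:120602237-120602486, plus strand) and Irx2 (chr13:72628570-72628819, plus strand) encode homeobox transcription factors. Mycn (chr12:12941837-12942086, minus strand) encodes a MYC family factor, and Runx1 (chr16:92697330-92697579, minus strand, an internal start of the gene) a Runt factor of blood and hair follicle. Bcl6 (chr16:23988853-23989102, minus strand) encodes a transcriptional repressor and Fgfr2 (chr7:130266809-130267058, minus strand) a receptor for fibroblast growth factors. Plk2 (chr13:110394794-110395043, plus strand) encodes a polo-like kinase, and its start lay at the anchor in the WT list alone, the DKO anchor being placed 10 kb farther upstream. Each sequence holds the 250 bases before the start, 5′ to 3′ on the strand of the gene, from RefSeq (GRCm38.p6), with every CpG in capitals.

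En1: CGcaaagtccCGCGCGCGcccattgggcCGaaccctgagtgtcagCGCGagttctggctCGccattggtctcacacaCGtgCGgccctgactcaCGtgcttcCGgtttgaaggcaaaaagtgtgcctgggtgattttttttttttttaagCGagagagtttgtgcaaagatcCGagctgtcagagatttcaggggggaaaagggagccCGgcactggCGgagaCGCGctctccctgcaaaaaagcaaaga
Irx2: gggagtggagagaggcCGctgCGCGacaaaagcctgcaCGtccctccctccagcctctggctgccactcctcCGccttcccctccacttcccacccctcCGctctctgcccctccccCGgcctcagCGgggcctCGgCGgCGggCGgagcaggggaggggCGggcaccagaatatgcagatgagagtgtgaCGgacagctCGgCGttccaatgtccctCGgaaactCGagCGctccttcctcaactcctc
Mycn: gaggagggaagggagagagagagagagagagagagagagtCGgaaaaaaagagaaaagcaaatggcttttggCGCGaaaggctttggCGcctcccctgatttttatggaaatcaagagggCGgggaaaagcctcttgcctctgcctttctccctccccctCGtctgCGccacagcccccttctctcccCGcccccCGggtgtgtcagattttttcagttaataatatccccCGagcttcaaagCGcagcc
Runx1: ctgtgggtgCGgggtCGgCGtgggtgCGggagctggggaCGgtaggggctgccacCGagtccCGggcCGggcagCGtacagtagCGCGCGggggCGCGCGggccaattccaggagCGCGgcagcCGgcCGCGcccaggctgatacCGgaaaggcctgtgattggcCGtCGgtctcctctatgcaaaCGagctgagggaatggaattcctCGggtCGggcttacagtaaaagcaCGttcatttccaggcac
Bcl6: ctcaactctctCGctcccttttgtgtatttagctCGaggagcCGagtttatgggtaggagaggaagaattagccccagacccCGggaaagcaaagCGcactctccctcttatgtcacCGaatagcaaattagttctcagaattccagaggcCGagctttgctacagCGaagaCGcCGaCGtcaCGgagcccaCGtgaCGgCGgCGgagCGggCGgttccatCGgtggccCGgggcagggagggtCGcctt
Fgfr2: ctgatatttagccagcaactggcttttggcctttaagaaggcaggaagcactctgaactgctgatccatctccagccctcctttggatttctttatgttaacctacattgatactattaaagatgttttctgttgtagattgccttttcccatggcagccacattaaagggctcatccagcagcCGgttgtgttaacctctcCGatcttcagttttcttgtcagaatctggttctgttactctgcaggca
Plk2: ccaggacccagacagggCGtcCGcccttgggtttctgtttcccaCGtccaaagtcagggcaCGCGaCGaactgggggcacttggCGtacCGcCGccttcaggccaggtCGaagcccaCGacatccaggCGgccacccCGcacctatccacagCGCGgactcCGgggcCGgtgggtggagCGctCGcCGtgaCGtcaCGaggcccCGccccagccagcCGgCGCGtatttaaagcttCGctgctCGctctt

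Plk2 had 28 CpG in these 250 bases, Runx1 27, Bcl6 21, En1 19, Irx2 19, Mycn 11 and Fgfr2 2. The promoters at long loops thus included CpG-rich starts and, at Fgfr2, a CpG-poor one. Over all genes with a start within 5 kb of a long-loop anchor in either list, 52 had a promoter in the RefSeq table. Each gene entered a set with its start of lowest coordinate in that set, which on the minus strand is the most downstream one. Bcl6 thus entered with 13 CpG and not the 21 printed, and Neto2 with 30 in DKO but 0 in WT. Their median was 13 CpG in 250 bases, against 15 for the 2793 genes at shorter pixels and 9 for all 17491 genes with a promoter. The median ratio of observed to expected CpG was 0.639 at long loops, 0.709 at shorter pixels and 0.525 over all genes. In the DKO list it was 0.685 over 31 genes and in the WT list 0.595 over 35 genes. With this choice of start, the medians at long loops in either list lay between those at shorter contacts and those of all genes, as a description of these sets. The sets at contacts hold only starts near an anchor, and the set of all genes holds starts anywhere in the gene. They are therefore not like for like, and no difference in CpG content is drawn from them.

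The DKO list held fewer long contacts than the WT list. The 124 DKO pixels (103 to 148) and 187 WT pixels (161 to 216) gave a ratio of 0.663 (0.524 to 0.837). For loops, 86 in DKO (68.8 to 106) and 117 in WT (96.8 to 140) gave 0.735 (0.550 to 0.979). With all false discovery rates under 0.01 the ratio was 0.782 (0.512 to 1.19) for pixels and 0.773 (0.479 to 1.24) for loops, and both intervals included 1. Over the full lists the loop ratio was 0.759 (0.676 to 0.852) at spans of 200 to under 500 kb and 0.917 (0.869 to 0.968) for all loops under 500 kb, so the interval for long loops included both of these values. For pixels the ratio was 0.698 (0.640 to 0.762) at 200 to under 500 kb, within the interval for long pixels, and 0.844 (0.812 to 0.878) for all under 500 kb, above it. Neighbouring pixels of 1 loop are not independent, so the intervals for numbers of pixels and their ratios are too narrow. No contrast between long and shorter pixels is therefore drawn from them. At 500 to under 750 kb the lists held 55 DKO and 78 WT loops (ratio 0.705, 0.490 to 1.01), and from 750 kb to under 1 Mb 17 DKO and 27 WT loops (0.630, 0.322 to 1.20). At 1 to under 2 Mb there were 13 DKO and 11 WT loops (1.18, 0.489 to 2.91), and each list held 1 loop over 2 Mb. The intervals of these span classes overlapped, so at this number of loops no change of the ratio with span beyond 500 kb was detectable. The median span was 652.5 kb in DKO and 635 kb in WT.

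**Figure D1:**
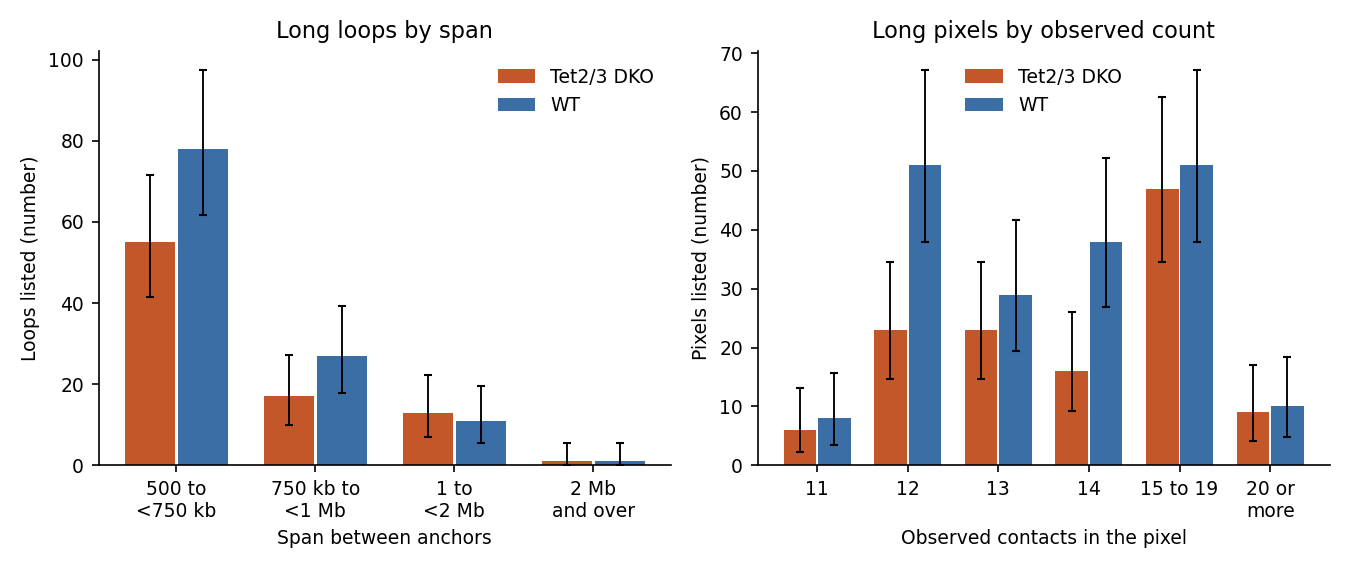
Long loops by span between anchors (left) and long pixels by observed contacts (right), as numbers listed in the Tet2/3 DKO and WT libraries, with exact Poisson 95% intervals as bars. At 1 to under 2 Mb the DKO list held 13 loops and the WT list 11, and the largest gaps between the lists were at pixels with 12 contacts (23 in DKO and 51 in WT) and 14 contacts (16 in DKO and 38 in WT).

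Long contacts rested on few read pairs in both libraries. The median was 14 observed contacts per long pixel in DKO (range 11 to 28) and 14 in WT (11 to 30), on a median expected count of 1.85 in DKO and 1.84 in WT. Long pixels with 11 to 14 contacts numbered 68 in DKO and 126 in WT (ratio 0.540, 0.396 to 0.730). Those with 15 or more numbered 56 in DKO and 61 in WT (0.918, 0.627 to 1.34). The difference in number was mostly among the pixels with fewest contacts, although the intervals of the 2 ratios overlapped. For whole loops the values were 46 in DKO and 74 in WT with 11 to 14 contacts at the highest pixel (0.622, 0.421 to 0.910), and 40 in DKO and 43 in WT with 15 or more (0.930, 0.589 to 1.47). The lowest count that entered a list was the same in both libraries for each of the 7 classes of expected count checked, between 10 and 15 contacts. At the 1940 pixels listed in both libraries at any span, the DKO/WT ratio of expected counts had a median of 0.973 (quartiles 0.904 and 1.05), and at the 33 long ones among them it was 1.04 (quartiles 0.968 and 1.12). The part of sequencing depth in the number of listed pixels was not tested.

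Enrichment, the observed count divided by the count expected from the ring of pixels around (the donut), was close in both libraries. Its median over long pixels was 7.35 in DKO (7.20 to 8.04) and 7.62 in WT (7.39 to 7.82). Shorter pixels had lower medians in both libraries, with 6.29 in DKO and 6.17 in WT at 200 to under 500 kb, and 3.43 in DKO and 3.42 in WT under 50 kb. Calling demands a higher ratio where the expected count is small, and expected counts fall with span, so these medians are a description of the lists. Both lists hold called pixels alone, with the same lowest counts. Close medians in DKO and WT therefore do not show that contacts were equally strong. At the edge of the span limit, pixels 1 bin short of it had a median enrichment of 6.72 in DKO and 6.18 in WT, and those of 500 kb 7.93 in DKO and 6.49 in WT.

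**Figure D2:**
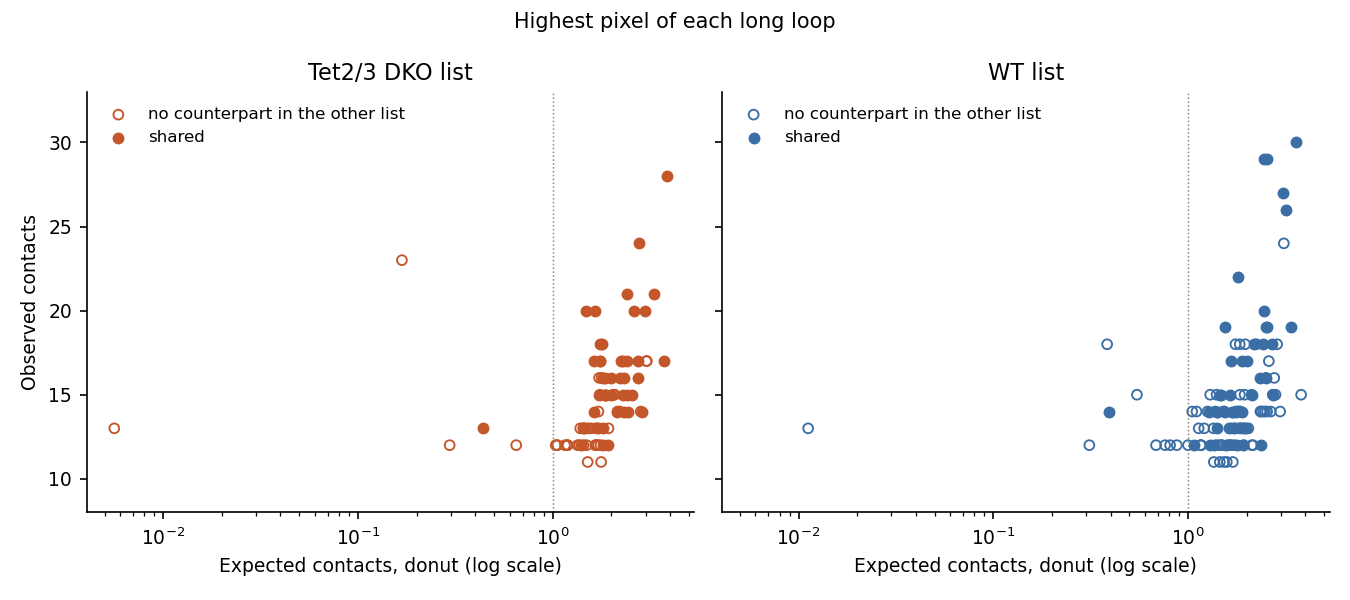
Observed contacts against the donut expected count (log scale) at the highest pixel of each long loop, in the DKO list (left) and the WT list (right), with filled points for loops found in both lists and open points for loops without a counterpart. Most loops lie above an expected count of 1 (dotted line), with 5 DKO loops and 10 WT loops below it, and the loops with 20 or more contacts are filled apart from 1 in each list.

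A loop was called shared where a pixel of the other list lay within 10 kb at both anchors. By this measure 45 long loops were shared, which is 52.3% of the DKO loops (41.3 to 63.2) and 38.5% of the WT loops (29.6 to 47.9). Among loops under 500 kb the shared part was 55.1% in DKO and 50.5% in WT. At 200 to under 500 kb it was 63.9% in DKO and 49.5% in WT. The shared loops were better measured than the others. All 4 deposited false discovery rates were under 0.01 in 25 of 45 shared loops in DKO and 25 of 45 in WT, but in 9 of 41 DKO loops and 17 of 72 WT loops without a counterpart. Loops of a single pixel made up 28 of the 45 shared loops in DKO and 19 of 45 in WT, against 36 of 41 in DKO and 63 of 72 in WT among those without a counterpart. Lack of a counterpart means that the other list has no pixel at that place, and not that the contact was absent. Both anchors of 2 of the 41 DKO loops and of 7 of the 72 WT loops without a counterpart lay within 10 kb of anchors in the other list, with other partners.

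Contacts at shared loops had close counts in both libraries, but only loops called in both lists are in this set. The lowest listed counts were the same in both libraries, and loops of 1 list are left out. The values below therefore cannot show whether long contacts in general were alike. The 45 shared loops summed to 733 observed contacts in DKO and 746 in WT at their highest pixels, on summed expected counts of 96.0 in DKO and 89.4 in WT. The DKO/WT ratio of enrichment had a median of 0.884 (quartiles 0.811 and 1.05, range 0.636 to 1.57). It was above 1 in 13 loops and below 1 in 32, and no single interval excluded 1. The lowest ratio belonged to a loop of 525 kb from Kcnh1 to a bin in Hhat, the acyltransferase of hedgehog ligands, with 17 contacts in DKO and 12 in WT. The highest belonged to a loop of 525 kb at Arl14ep with 18 contacts in DKO and 13 in WT. At the 33 long pixels listed at the same bins in both libraries the median ratio was 0.951 (0.869 to 1.08). Of these, 1 was at least 1.5-fold higher in DKO, against 3.56% of the 1940 pixels shared at all spans, and 0 were at least 1.5-fold lower, against 5.26%. Among the 14 long pixels with at least 15 contacts in each library, the highest ratio was 1.16 (0.610 to 2.24) at Enc1 and Arhgef28. The lowest was 0.706 (0.347 to 1.41) at Mmadhc and Kif5c.

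Among the gene lists examined, HOX genes had the highest share at long loops, as they had at loops under 500 kb. At long loops they came from the Hoxa cluster in DKO and the Hoxd cluster in WT. Over the genome, 112 of 21883 protein-coding genes had an end within 5 kb of a long-loop anchor in either list (0.512%), with 65 in DKO (0.297%) and 77 in WT (0.352%). Of 296 genes in 3 lists of HOX, other homeobox and other developmental transcription factors, 16 did (5.41%), with 4 in both lists, 6 in DKO alone and 6 in WT alone. At loops under 500 kb the share was 27.4% of these 296 genes and 22.5% of all genes. Of 41 HOX genes 9 lay at long loops (22%) and 22 at loops under 500 kb (53.7%). Members of 1 cluster share an anchor and are not independent. With all false discovery rates under 0.01, 0 HOX genes lay at long loops in DKO and 0 in WT. The other 7 of the 16 were En1, Irx1, Irx2 and Tbx3 in both lists, and Nkx2-2, Sox2 and Sox4 in WT alone. Either end of a gene counted here and below, so a loop at a gene need not reach its promoter. A start in the RefSeq promoter table, outer or internal, lay within 5 kb of a long-loop anchor for 52 genes. No such start lay there for Tbx3, Irx1, Shh, Rgma, Chd2, Mmadhc or Slc4a1ap.

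Irx1 and Irx2, Iroquois homeobox genes of chromosome 13, faced each other across 665 kb with no other protein-coding gene between. The pixel had 17 contacts in DKO and 19 in WT, at 10.5 times the expected count in DKO (6.09 to 16.7) and 12.2 times in WT (7.35 to 19.1). It was the only long loop in the lists that joined members of the gene lists at both anchors. Its DKO/WT ratio of enrichment was 0.856 (0.418 to 1.74) over the donut, within counting error, but 2.22 over the vertical expected count, so its direction turned with the neighbourhood chosen.

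An end of Tbx3, a T-box factor of chromosome 5, met a site on the side of lower coordinates in both libraries. The gene itself lay inside the loop, and no listed start of it lay at the anchor. Over 905 kb there were 16 contacts in DKO and 18 in WT, at 6.88 times the expected count in DKO (3.93 to 11.2) and 6.64 times in WT (3.93 to 10.5). A loop of 815 kb from the next bin, which has Tbx3 as its nearest gene but no gene end within 5 kb, had 13 contacts in DKO and 12 in WT, at 9.04 times in DKO (4.81 to 15.5) and 6.73 times in WT (3.48 to 11.7). Both loops were thus listed at the same bins in each library. En1 met a site 580 kb away with 14 contacts in DKO and 12 in WT, at 6.56 times in DKO (3.59 to 11) and 6.25 times in WT (3.23 to 10.9). Mycn met a site near Cyria over 520 kb with 14 contacts in DKO and 16 in WT, at 5.74 times in DKO (3.14 to 9.63) and 6.35 times in WT (3.63 to 10.3). None of these loops differed beyond the counting error.

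Of 62 genes of BMP, SHH, NOTCH, FGF and EDA signalling, 2 lay at long loops, Shh and Fgfr2, both in both lists. Shh encodes the hedgehog ligand of the follicle, and its partner lay in Lmbr1, the gene whose intron holds the limb enhancer of Shh. Whether the partner bins hold that enhancer was not tested. The shared Shh loop had 14 contacts over 840 kb in DKO and 12 over 825 kb in WT. Enrichment was 4.90 times the expected count in DKO (2.68 to 8.22) and 7.69 times in WT (3.97 to 13.4). The WT list alone held another Shh loop of 885 kb with 11 contacts. At Fgfr2 the loop of 615 kb had 21 contacts in DKO and 26 in WT, at 6.36 times in DKO (3.94 to 9.72) and 8.12 times in WT (5.30 to 11.9). At both genes the intervals overlapped.

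Other list members came from 1 library each. In the DKO list the Hoxa cluster of chromosome 6 formed 3 long loops, of 1060 kb from the stretch of Hoxa3 to Hoxa10 with 15 contacts and of 585 and 660 kb from Hoxa13 into Jazf1 with 13 contacts each. No long pixel was called there in WT. In the WT list the Hoxd8 to Hoxd10 region met a site 890 kb away with 13 contacts, Sox2 a site 835 kb away with 12, Sox4 a site in Cdkal1 645 kb away with 12 and Nkx2-2 a site 565 kb away with 14. The WT list also held Krt80, an epithelial keratin, over 720 kb with 14 contacts, and the DKO list Pds5b, a cohesin regulator, over 695 kb with 12. Each of these loops apart from 1060 and 660 kb at Hoxa was a single pixel. No gene of the WNT list (59 genes), the list of terminal differentiation and desmosomes (40), DNA methylation (22), melanocytes (10), dermal papilla and fibroblasts (17) or immune, endothelial and nerve cells (18) lay at a long loop in either library. Of 34 hair follicle transcription factors 1 did, Sox2, in WT. All these list counts use the outer ends of each gene. They leave out starts inside a gene, such as the internal start of Runx1 at an anchor in both lists.

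**Figure D3:**
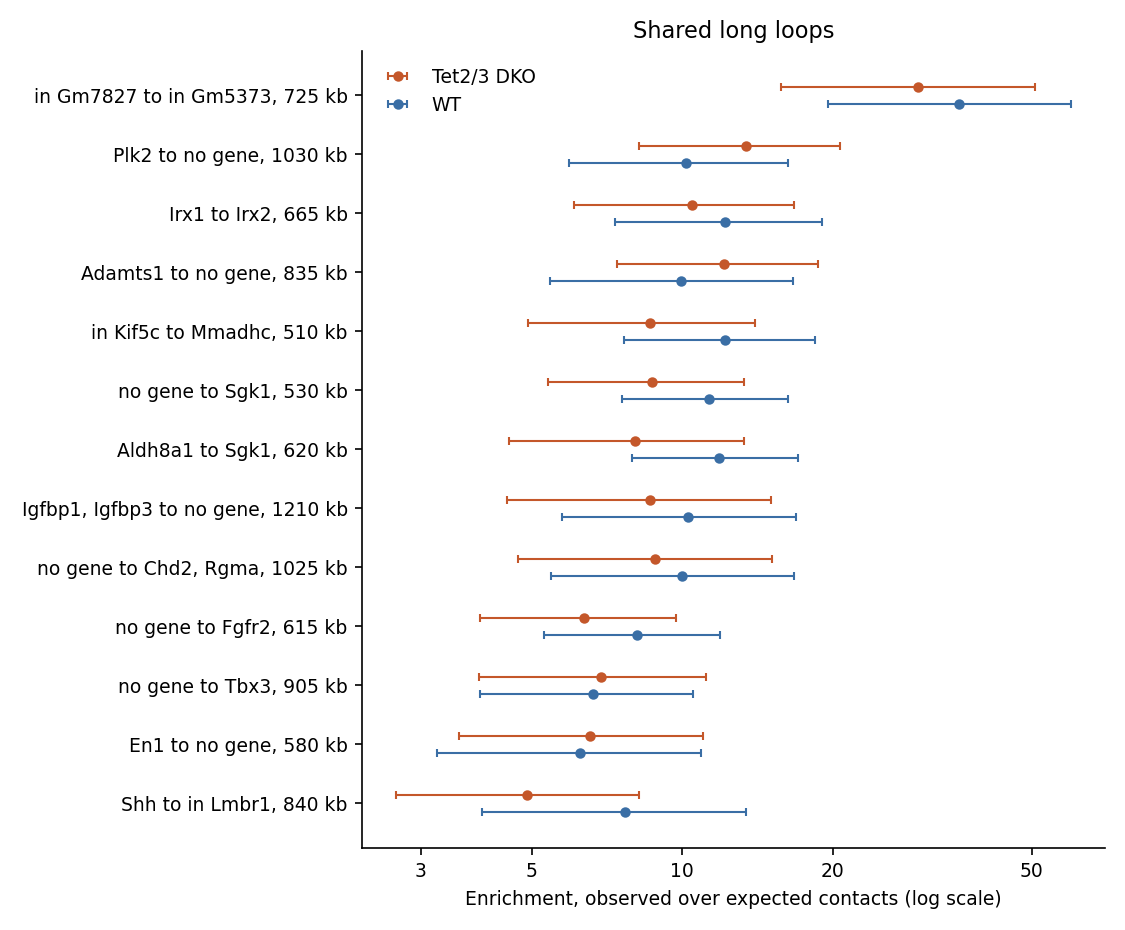
Enrichment (observed over expected contacts, log scale) of shared long loops in the DKO and WT libraries, with exact Poisson 95% intervals. Drawn are 9 of the 10 shared loops of highest mean enrichment and the other shared loops with an outer end of a listed gene at an anchor. Labels give the genes at the lower and the higher anchor and the span in DKO. The intervals of both libraries overlap for each loop; the topmost, between bins in Gm7827 and Gm5373, stands on expected counts of 0.438 in DKO and 0.392 in WT, whose own error the intervals leave out, and the others run from 13.4 in DKO and 10.2 in WT at Plk2 to 4.90 in DKO and 7.69 in WT at Shh.

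Shared loops of high enrichment had genes of varied function at an anchor, most of them at 1 anchor only. The highest ratio, at the loop of 725 kb between bins in Gm7827 and Gm5373, came from 13 contacts in DKO and 14 in WT on expected counts of 0.438 in DKO and 0.392 in WT, too small for a precise ratio. The anchor at Plk2 met a site 1030 kb away in DKO with 20 contacts and 1020 kb away in WT with 17, at 13.4 times the expected count in DKO (8.20 to 20.7) and 10.2 times in WT (5.94 to 16.3). Adamts1, a secreted metalloprotease, met a site 835 kb away with 20 contacts in DKO and 14 in WT, at 12.1 times in DKO (7.41 to 18.7) and 9.95 times in WT (5.44 to 16.7). Mmadhc, of cobalamin metabolism, met a bin in Kif5c, a kinesin gene, over 510 kb with 16 contacts in DKO and 22 in WT, at 8.61 times in DKO (4.92 to 14) and 12.2 times in WT (7.64 to 18.5). Plk2 and Adamts1 had the higher count in DKO, and Mmadhc in WT, each within counting error. The DKO/WT ratio of enrichment at Plk2 was 1.32 (0.655 to 2.68) over the donut, 2.73 over the vertical and 0.861 over the horizontal expected count, so its direction too turned with the neighbourhood. An end of Rgma, which encodes a BMP co-receptor, lay at an anchor in both lists, and an end of Chd2 lay there in DKO alone. This anchor met a site 1025 kb away with 13 contacts in DKO and 1015 kb away with 14 in WT. Enrichment there was 8.83 times in DKO (4.70 to 15.1) and 9.98 times in WT (5.46 to 16.7). The highest counts of any long loop were at Slc4a1ap, with 28 in DKO and 30 in WT over 635 kb.

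Sgk1, the serum- and glucocorticoid-regulated kinase, met 2 sites on its upstream side in both libraries. Over 530 kb there were 21 contacts in DKO and 29 in WT, at 8.69 times the expected count in DKO (5.38 to 13.3) and 11.3 times in WT (7.60 to 16.3). The contact of a bin beside Sgk1 with Aldh8a1, an aldehyde dehydrogenase gene, had 15 contacts over 620 kb in DKO and 29 over 625 kb in WT, at 8.05 times in DKO (4.51 to 13.3) and 11.9 times in WT (7.95 to 17). The ratio of enrichment at the Aldh8a1 contact was 0.679 (0.338 to 1.31). The ratio of counts there was 0.517 (0.258 to 0.997), the only one of the 45 shared loops whose interval excluded 1, and at the 530 kb loop it was 0.724 (0.393 to 1.31). Both loops beside Sgk1 thus had the lower count in DKO. The count ratio at the Aldh8a1 contact was the lowest of the 45, and its interval was not adjusted for that number. The counts are also not scaled for sequencing depth, and the interval of the enrichment ratio included 1. No difference between the libraries is therefore drawn from this contact.

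Few anchors had several long loops. Of 161 anchor sites in DKO, 7 had 2 long loops and 2 had 3 or more, and of 219 in WT, 13 had 2 and 1 had 3 or more. The sites with 3 were Hoxa and the pair Igfbp1 and Igfbp3 in DKO and Plk2 in WT. Igfbp1 and Igfbp3 encode binding proteins of insulin-like growth factors and lie next to each other on chromosome 11. From Igfbp1 the shared loop had 12 contacts over 1210 kb in DKO and 15 over 1205 kb in WT, at 8.62 times the expected count in DKO (4.45 to 15.1) and 10.3 times in WT (5.74 to 16.9). From Igfbp3 the DKO list alone held loops of 1030 kb with 14 contacts and 1090 kb with 12. All 3 partners lay on the same side, towards Tns3. From Plk2 a second shared loop had 15 contacts over 585 kb in DKO and 13 over 580 kb in WT, and the WT list alone held one of 845 kb with 12 contacts.

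Several other anchors had a shared loop and a longer or shorter one in 1 list. Bcl6 met a shared site 1085 kb away with 15 contacts in DKO and 14 in WT, at 8.02 times the expected count in DKO (4.49 to 13.2) and 8.31 times in WT (4.54 to 13.9), and in DKO alone a site 1280 kb away with 13 contacts. The internal start of Runx1 met a shared site 595 kb away with 14 contacts in DKO and 16 in WT, and in DKO alone a site 750 kb away with 13. Kif26b, a kinesin gene, met a shared site 615 kb away with 17 contacts in DKO and 17 in WT, and in WT alone a site 950 kb away with 14. In these cases the shared partner had slightly more contacts than the partner of 1 list.

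**Figure D4:**
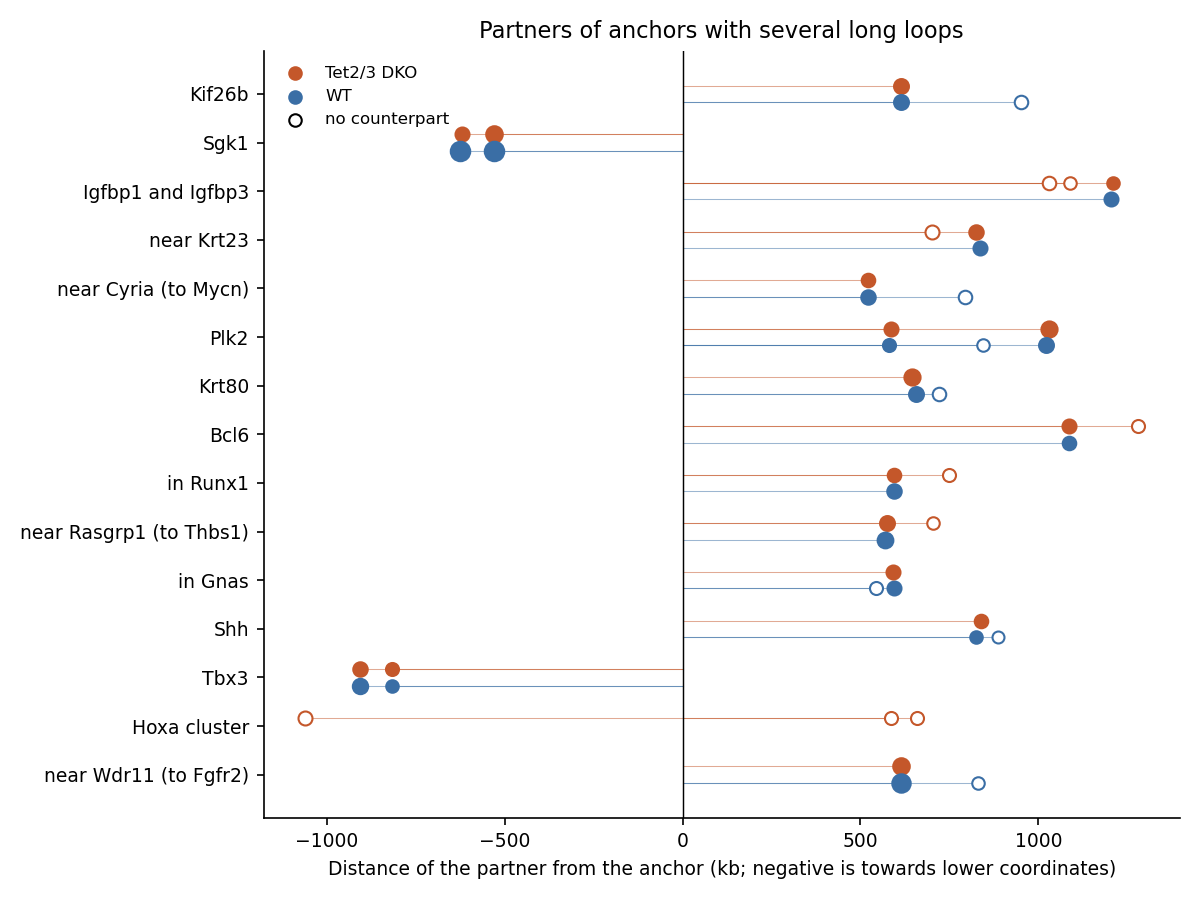
Distance in kb from each anchor with several long loops to its partners, with DKO loops above WT loops at each anchor, filled circles for shared loops, open circles for loops without a counterpart and circle area in proportion to observed contacts. Only anchors with a loop in the DKO list are drawn; each open circle but those of Hoxa stands beside a filled one in its row, and Sgk1 and Tbx3 have the same 2 partners in both libraries to within 5 kb.

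Loops of 1 Mb or more numbered 14 in DKO and 12 in WT, and 7 were shared. Those at Plk2, Igfbp1, Bcl6 and Rgma are given above. At Plpp3, a lipid phosphatase gene, the loop of 1075 kb had 12 contacts in DKO and 14 in WT, at 6.62 times the expected count in DKO (3.42 to 11.6) and 7.94 times in WT (4.34 to 13.3). A loop of 1340 kb in DKO and 1330 kb in WT on chromosome 2 had no gene end at its anchors and enclosed Gata3, a transcription factor of the inner root sheath, as the only protein-coding gene. Its highest pixel held 15 contacts in DKO and 12 in WT, at 6.24 times in DKO (3.49 to 10.3) and 8.86 times in WT (4.58 to 15.5). Likewise a loop of 1115 kb in DKO and 1110 kb in WT on chromosome 13 enclosed Gli3, a transcription factor of hedgehog signalling, and no other protein-coding gene. Contacts there numbered 17 in DKO and 14 in WT, at 9.69 times in DKO (5.65 to 15.5) and 8.24 times in WT (4.51 to 13.8). The anchors of both loops thus lay outside the gene they enclosed.

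The other loops of 1 Mb or more had no counterpart. In DKO they were 1175 kb at Rrp15 with 13 contacts, 1125 kb with Eea1 and Dcn the nearest genes with 13, the loops already given at Igfbp3, Bcl6 and Hoxa, and 3130 kb to a bin in Clstn1 with 13. In WT they were 1035 kb at Rrp15 with 12 contacts, 1010 kb to a bin in Rsrc1 with 13, 1055 kb to a bin in Astn2 with 12, 1065 kb between Mptx2 and Mptx1 with 18, and 4360 kb to a bin in Ulbp1 with 13. The Rrp15 loops of both lists ended in the same bin and began at different sites. The loops of 3130 kb in DKO and 4360 kb in WT stood on expected counts of 0.00561 contacts in DKO and 0.0112 in WT, and the one between Mptx2 and Mptx1 in WT on 0.384. On expected counts this small the ratio has no useful precision, and no ratio is given for them.

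Loops without a counterpart had lower counts. The median at the highest pixel was 13 contacts in DKO and 13.5 in WT, against 16 in DKO and 15 in WT for shared loops. The highest in DKO was 23 contacts over 610 kb at Gm42346 on chromosome 4, on an expected count of 0.168. Then came 17 contacts over 860 kb to a bin in Fggy, 17 over 705 kb between bins in Disc1 and Pcnx2, 16 over 790 kb to a bin in Epsti1, and 16 over 640 kb joining Bclaf1 to Ahi1, a gene of the primary cilium. Ccdc110 over 500 kb had 15, as had the 1060 kb Hoxa loop and a loop of 700 kb on chromosome 11 from near Krt23 to near Krt9, and a loop between bins in Bbs9 and Bmper over 540 kb had 14, as had the Igfbp3 loop of 1030 kb. Among these DKO loops, Bclaf1 to Ahi1 was the one with gene ends at both anchors. The highest in WT was 24 contacts over 525 kb joining Ostc, a subunit of oligosaccharyltransferase, to Hadh, of fatty acid oxidation, at 7.73 times the expected count (4.95 to 11.5). Capn13 to Xdh over 580 kb had 18, as had loops at Mrc2, a collagen receptor, over 565 kb, at Adra1b, an adrenergic receptor, over 545 kb, in Dytn over 790 kb and in Atad1 over 515 kb. A loop in Atg5 over 720 kb had 17, and loops near Kctd3 over 600 kb and near Mrps23 over 570 kb had 16 each. Of the 10 WT loops with the highest counts, Ostc to Hadh, Capn13 to Xdh and the loop between Mptx2 and Mptx1 given above had gene ends at both anchors.

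Some of these lay close to a loop of the other list. The WT loop of Mrc2 ended in the same bin of Tanc2 as a DKO loop of 550 kb from the neighbouring gene Marchf10 with 13 contacts. With the match at 5 bins in place of 2, 54.7% of the DKO loops and 40.2% of the WT loops had a counterpart. Chromosome 3 held 0 long loops in DKO and 7 in WT, on which 31 DKO and 35 WT loops of 200 to under 500 kb were listed. This chromosome was singled out after the values were seen.

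Most keratin genes of chromosomes 11 and 15 lay within 1 shared long loop per chromosome. At an anchor lay 1 of 48 (2.08%, against 0.512% of all protein-coding genes). On chromosome 11 a shared loop of 825 kb in DKO and 835 kb in WT enclosed 17 of the 25 type I keratin genes listed there, Krt14 among them, with 16 contacts in DKO and 15 in WT. On chromosome 15 a shared loop of 645 kb in DKO and 655 kb in WT enclosed 20 of the 23 keratin genes listed there, Krt5 and Krt71 among them, with 20 contacts in DKO and 17 in WT. In all, 56 protein-coding genes lay within the chromosome 11 loop and 24 within the chromosome 15 loop. Each keratin count thus rests on 1 loop, and the share of all protein-coding genes enclosed by long loops was not computed. Enrichment was 8.04 in DKO (4.60 to 13.1) and 7.07 in WT (3.96 to 11.7) on chromosome 11, and 7.63 in DKO (4.66 to 11.8) and 9.0 in WT (5.24 to 14.4) on chromosome 15. Both loops were thus listed in each library with overlapping intervals. Other shared loops enclosed Klf5, an epithelial transcription factor, with a span of 750 kb in DKO and of 755 kb in WT, and Hes1, a NOTCH target, with a span of 510 kb in both.

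Long loops were less often at genes than all loops under 500 kb in both lists, but about as often as loops of 200 to under 500 kb. A protein-coding gene end lay within 5 kb of an anchor in 48 of 86 DKO loops (55.8%, 44.7 to 66.5) and 64 of 117 WT loops (54.7%, 45.2 to 63.9). For loops under 500 kb the share was 72.0% in DKO and 71.2% in WT. For loops of 200 to under 500 kb it was 60.0% in DKO (55.7 to 64.3) and 57.8% in WT (54.0 to 61.5), within the intervals of the long loops. Gene ends at both anchors were found in 8 DKO loops (9.30%) and 10 WT loops (8.55%), against 32.9% in DKO and 30.2% in WT under 500 kb and 17% in DKO and 16.1% in WT at 200 to under 500 kb. Of single anchors, 77 of 172 in DKO (44.8%) and 97 of 234 in WT (41.5%) lay between genes, against 35.0% in DKO and 35.4% in WT at 200 to under 500 kb. The sequence between the anchors held a median of 1.71 protein-coding genes per Mb in DKO and 1.71 in WT, against 3.70 in DKO and 3.57 in WT for loops of 200 to under 500 kb. No gene lay between the anchors of 21 DKO and 25 WT loops. The lower quartile of genes per Mb was 0.755 in DKO and 0.930 in WT, against 0 in both lists at 200 to under 500 kb. The 2 libraries gave close values for each of these measures.

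**Figure D5:**
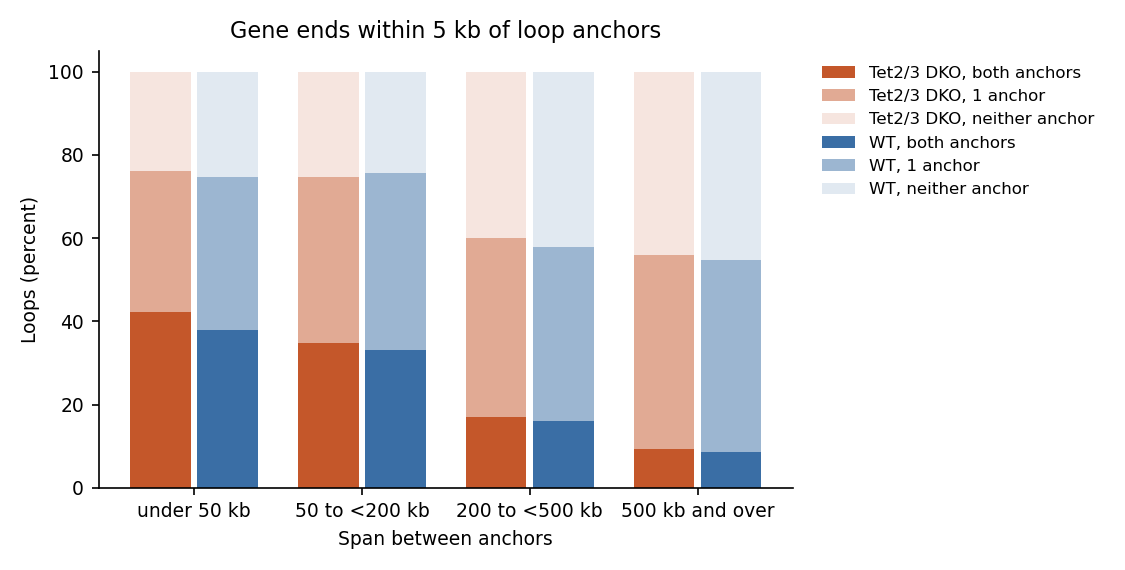
Percent of loops with a protein-coding gene end within 5 kb of both anchors, 1 anchor or neither anchor, by span between anchors, in the DKO and WT lists. The share with gene ends at both anchors is 42.1% in DKO and 37.9% in WT under 50 kb, and 9.30% in DKO and 8.55% in WT at 500 kb and over.

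Most anchors of long loops had no anchor of a shorter listed contact within 10 kb. Such an anchor lay within 10 kb of 28 of 172 anchors in DKO (16.3%) and 44 of 234 in WT (18.8%). At 200 to under 500 kb the share was 17.2% in DKO and 19.8% in WT. No shorter listed contact lay inside 51 of 86 DKO loops and 71 of 117 WT loops. With anchors within 20 kb joined, 92 anchor sites were used by long loops of both lists, 69 by DKO alone and 127 by WT alone. Where a gene start lay at an anchor, the partner was upstream of it in 18 cases and downstream in 16 in DKO, and upstream in 16 and downstream in 23 in WT. Partners thus lay on both sides of gene starts in either list.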

How the data were processed

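Hi-C was run on 1 DKO and 1 WT library. Per the file headers, juicer_tools 1.22.01 wrote the pixel lists. The submitters' processing notes name Juicer and GRCm38 (mm10). The aligner, the read filters and the depth are not stated there. The authors deposited for each pixel the observed contact count, not normalised, and, as a signal on the scale of that count, the contacts expected from 4 neighbourhoods (bottom-left, donut, horizontal, vertical). The authors also deposited a q-value (false discovery rate, FDR) per neighbourhood, all under 0.1, and a score, the number of the expected-count class. Pixels that were not called have no values.

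Long pixels were joined by single linkage within 20 kb at both anchors, and the pixel with most contacts gave each loop its position. Loops were matched within 2 bins. Genes were the 21883 protein-coding genes of the RefSeq GRCm38.p6 table; 600 of 602 listed symbols in 13 lists were found. Intervals are exact, Poisson for counts, conditional binomial for ratios and Clopper-Pearson for shares, with expected counts taken as fixed, and from order statistics for medians. Python 3.11.15, pandas 2.3.3, numpy 2.4.6 and scipy 1.17.1 were used, and steps were tested on simulated data. Loops named were those of at least 1 Mb, the 10 shared loops of highest mean enrichment, the 10 per list without a counterpart with most contacts, shared pixels with at least 15 contacts in each library and the 5 highest or 5 lowest ratios, of which the extremes are given, anchors with at least 3 loops, and loops at list members; others were chosen after their values were seen. The members and lists were chosen with earlier results of these data known. Alternatives were a stricter FDR, minimum observed or expected counts, other span limits, linkage and matching distances, other expected counts, other gene-end windows, autosomes alone, the chromosome 17 pixels kept and, added after seeing the data, loops of at least 2 pixels. 1 shared loop among the 10 of highest enrichment is not reported here.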

Additional observations from a re-analysis of the deposited data

How the results depend on the processing

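The lower number of long contacts in DKO held in direction for all alternatives but 1. The interval of the loop ratio, below 1 as reported, included 1 with all FDRs under 0.01 (0.773, 0.479 to 1.24), with at least 15 contacts (0.930, 0.589 to 1.47), with an expected count of at least 1 (0.757, 0.560 to 1.01985), at 600 kb (0.743, 0.515 to 1.07), with linkage at 50 kb (0.752, 0.561 to 1.01) and for loops of at least 2 pixels (0.629, 0.351 to 1.10). That of the pixel ratio included 1 with all FDRs under 0.01 (0.782, 0.512 to 1.19) and with at least 15 contacts (0.918, 0.627 to 1.34). At a minimum span of 1 Mb there were 22 pixels in DKO and 18 in WT (ratio 1.222) and 14 loops in DKO and 12 in WT (1.17), 58.3% of the WT loops had a counterpart, median enrichment was 8.39 in DKO and 8.71 in WT, and 4 genes of the lists lay at DKO loops and 0 at WT loops, compared with 13 and 13 at 500 kb. With all FDRs under 0.01 there were 43 pixels and 34 loops in DKO and 55 pixels and 44 loops in WT, median enrichment was 8.12 in DKO and 8.50 in WT, its ratio at shared pixels 0.856, and 3 list genes lay at loops of each list. With at least 15 contacts there were 56 pixels and 40 loops in DKO and 61 pixels and 43 loops in WT (pixel ratio 0.918), 8 list genes in DKO and 4 in WT, and a shared-pixel ratio of 0.863. At a minimum of 400 kb there were 233 pixels and 159 loops in DKO and 356 pixels and 212 loops in WT, with 20 list genes and median enrichment 7.20 in WT, and at 600 kb 76 pixels and 55 loops in DKO and 114 pixels and 74 loops in WT. Exact matching left 32.6% of DKO and 23.9% of WT loops shared. Median enrichment was 7.11 in WT over the bottom-left expected count, 6.05 in DKO and 6.06 in WT over the horizontal, and 6.09 in DKO and 5.99 in WT over the vertical. With a gene end required inside the anchor bin, 29.1% of DKO and 35.0% of WT loops lay at a gene, with 6 list genes in DKO and 8 in WT; within 10 kb, 70.9% in DKO and 68.4% in WT; with any overlap of the gene body, 69.8% in DKO and 78.6% in WT. Loops of at least 2 pixels numbered 22 in DKO and 35 in WT, of which 77.3% in DKO and 74.3% in WT were shared and 65.7% in WT lay at a gene end, with 6 list genes in DKO and 5 in WT. The causes of these differences were not tested, beyond the fewer or more pixels each limit leaves. Another 88 values of these results stayed within their counting interval or within 1.5 times the count.

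No paired analysis was possible because there was 1 library per genotype, and for the same reason no replicate could be left out. With 11 to 30 contacts per long pixel, counting error alone spans several-fold ranges for a single contact, so differences between the libraries smaller than that were not detectable at this depth.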
